A study of Mus musculus with 24 samples.

Results

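The genes described here encode the machinery that copies DNA and the regulators of the step from G1 into S phase, 37 genes chosen by symbol. They comprise 6 subunits of the replicative helicase ring, 8 factors that load and activate it, 10 genes of DNA synthesis, 5 of nucleotide supply and uracil removal, 5 of G1/S control and 3 of histone supply. All 37 were found among the 48526 genes of the deposited count tables, and all 37 were among the 14560 genes that passed the filter on low counts and were tested.

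The measurements are messenger RNA levels in T cells, which the labels give as CD8+, from OT-1 mice, a strain whose CD8 T cells bear 1 transgenic receptor for an ovalbumin peptide. Whole splenocyte cultures received peptide at 2 µg/mL, with a Toll-like receptor (TLR) agonist added 1 h earlier in the agonist groups, and T cells were then taken by immunomagnetic negative selection. The OVA groups are named for the peptide with no agonist, and the TLR2 and TLR7 groups for the receptor whose agonist was added; each was sampled at 24 h and at 72 h, with 4 libraries in each of the 6 groups. The labels list Pam3CSK4, a TLR2 agonist, and both gardiquimod and R848, which act on TLR7, and do not say which of the latter was used in the sequenced cultures. All groups thus share the transgenic receptor, the peptide and the presence of other spleen cells during culture, and agonist acting on those cells and agonist acting on the T cells cannot be told apart. Whether the libraries of a group come from different mice or cultures is not in the labels; p-values then measure only how far these samples spread, and that spread may be technical. The question addressed is how a TLR agonist present during activation alters the cells, here read through the genes of S phase entry.

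Before S phase, Cdc6 and Cdt1 load the Mcm2 to Mcm7 ring onto origins of replication, and Cdc45 and the GINS proteins turn the ring into an active helicase. Most of these genes are transcribed in late G1 under E2F transcription factors, released from the retinoblastoma protein by cyclin-dependent kinases with cyclins D and E. Resting CD8 T cells express them at low levels, and antigen recognition drives the cells into a run of rapid divisions that then slows.

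Because E2F factors are the textbook regulators of these genes, the RefSeq promoter windows on GRCm38.p6 (300 bases, from 250 before to 50 after the start) were searched on both strands for 4 E2F words, TTTCCCGC, TTTCGCGC, TTTGCCGC and TTTGGCGC. Windows were found for 30 of the 37 genes; Gins1, Gins2, Gins4, Ccne2, Mcm4, Rfc2 and Prim2 were not matched. At least 1 word was present in 11 of the 30 (36.7%), namely Cdc6, Cdt1, E2f2, Gins3, Lig1, Mcm3, Mcm5, Mcm6, Mcm7, Pola1 and Rfc3. The share was 4.74% of the tested genes with a window and 2.6% of all 27025 genes in the table. A second list of 55 other replication genes held a word in 39.1% of its 46 matched genes, and a list of 30 G2/M genes in 4% of 25. CCAAT, a word common in promoters of mitotic genes, was present in 60% of the replication and G1/S genes, in 76% of the G2/M genes and in 43.1% of tested genes. A match describes the letters only and was not tested as a binding site. The stretches around the words upstream of the RefSeq start of 4 genes follow, with the E2F words in capitals. These are the 4 genes whose stretch overlaps no annotated exon. The stretches of Gins3, Mcm7 and Rfc3 also hold upstream words but overlap an exon, and are not printed. All of these genes fell from 24 h to 72 h in the TLR2 cultures, as described later, but so did 34 of the 37 in total. In Mcm5, and at the first site of Mcm6, 2 words overlap on opposite strands. In the GENCODE annotation the Cdc6 stretch lies inside the gene, in the first intron of its longer transcripts.
Cdc6 promoter, chr11:98907983-98908050, plus strand: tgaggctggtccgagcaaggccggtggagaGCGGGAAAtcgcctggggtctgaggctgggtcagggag
Mcm5 promoter, chr8:75109326-75109397, plus strand: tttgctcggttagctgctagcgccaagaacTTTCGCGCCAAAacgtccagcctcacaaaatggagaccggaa
Mcm6 promoter, chr1:128359715-128359845, minus strand: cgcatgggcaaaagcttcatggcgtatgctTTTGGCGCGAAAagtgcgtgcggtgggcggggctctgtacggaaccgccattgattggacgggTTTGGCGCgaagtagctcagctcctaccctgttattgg
Pola1 promoter, chrX:93632256-93632323, minus strand: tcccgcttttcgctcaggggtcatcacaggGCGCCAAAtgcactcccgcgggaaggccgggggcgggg

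Library totals ran from 10.5 to 27.1 M counts; 5 libraries were shallow (up to 11.7 M) and the others held at least 21.5 M. A floor of 3 counts corresponded to 0.11 to 0.286 CPM (the count divided by the TMM-scaled library total in M), far under every value of the 37 genes, and covers counting error only. A principal component analysis was made without the 37 genes and the other replication genes, but with the G2/M genes. Its first component (60.2% of the variance) separated the times for 16 libraries, at 84.9 to 98.8 at 24 h and -90.2 to -55.9 at 72 h. The other 8 lay between, at -20.6 to -1.5: replicates 1, 3 and 4 of TLR2 at 72 h, replicate 4 of OVA at 72 h, replicates 3 and 4 of TLR7 at 24 h, and replicates 1 and 3 of OVA at 24 h. These are called the middle libraries, and counts of genes are given with and without them, as are values whose call turns. Without them TLR2 at 72 h has 1 library, which is assumed to vary like the other groups. Because the middle libraries were picked in these same data for lying between the times, leaving them out favours differences between times and small errors. In OVA over time, 2709 of all tested genes passed with all libraries and 7596 without the middle ones. Adjusted p without them is therefore no added support for a change over time. The CD8 markers Cd8a and Cd8b1 summed to group means of 811 to 1260 CPM, while Cd4 stayed at or below 2 CPM in every library. The 6 T cell markers summed to group means of 1200 to 3210 CPM. Other summed markers had group means of 8.14 to 126 CPM for B cells, 2.09 to 37.3 for plasma cells, 1.21 to 19.6 for macrophages and monocytes, 2.29 to 7.69 for dendritic cells, 0.0983 to 31.4 for neutrophils, 0.263 to 4.19 for erythroid cells and 0.492 to 4.46 for NK cells. In these bulk samples fewer cycling cells and less RNA of these genes per cell cannot be told apart.

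As a mean log2 CPM over the 37 genes, the level was highest in TLR2 at 24 h, at 7.27 ± 0.06 (SD, n = 4). It was 6.88 ± 0.39 in OVA at 24 h, 6.25 ± 0.27 in TLR7 at 24 h, and 6.08 ± 0.59, 6.08 ± 0.63 and 6.05 ± 0.21 in OVA, TLR2 and TLR7 at 72 h. The 4 TLR2 libraries at 24 h lay within 7.19 to 7.34, above the 4 of TLR7 at 24 h (5.85 to 6.43) and above every library at 72 h (5.23 to 6.87). The wide spread in OVA at 24 h came with the component above: 7.36 and 6.98 in its other libraries against 6.46 and 6.7 in its middle libraries. At 72 h the middle libraries were high instead, 6.87 in OVA against 5.46 to 6.07, and 5.98 to 6.62 in TLR2 against 5.23. Without the middle libraries the means at 24 h were 7.17 (n = 2), 7.27 (n = 4) and 6.41 (n = 2) for OVA, TLR2 and TLR7, and at 72 h 5.82 (n = 3), 5.23 (n = 1) and 6.05 (n = 4). With all libraries the G2/M genes, which serve mitosis, ordered the groups otherwise. Their mean level was 5.34, 5.21 and 4.65 at 24 h and 6.4, 5.65 and 6.22 at 72 h for OVA, TLR2 and TLR7. Without the middle libraries it was 4.94, 5.21 and 3.69 at 24 h, the same order as the replication genes there. At 72 h it was then 6.39, 5.94 (n = 1) and 6.22, still above the levels at 24 h.

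**Figure D1:**
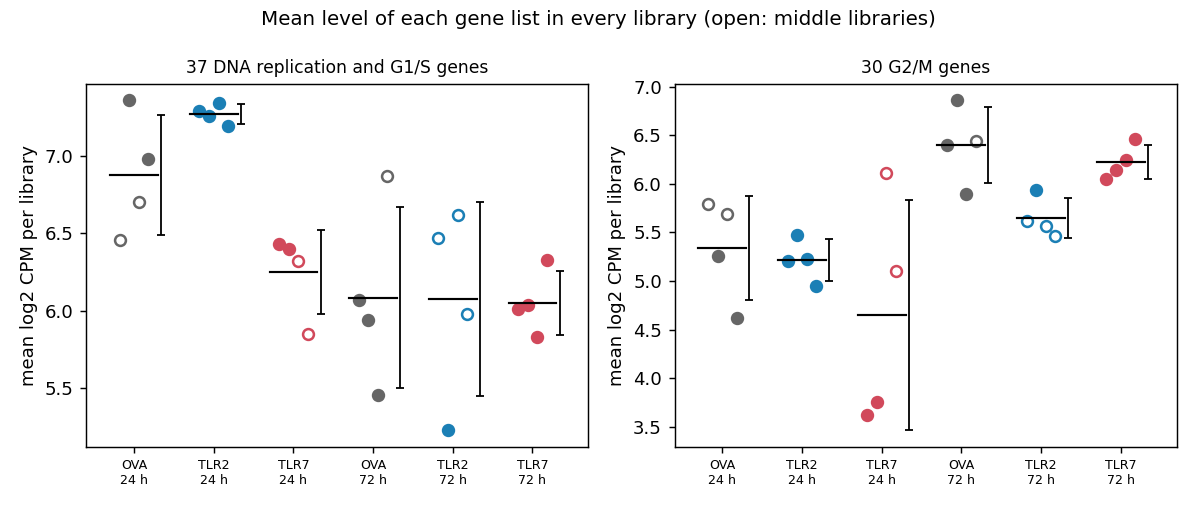
Mean log2 CPM (vertical axis) of the 37 replication and G1/S genes (left) and of 30 G2/M genes (right) in each of 24 libraries, by group; lines are group means, bars SDs, open circles middle libraries. The group mean of the replication genes was highest in TLR2 at 24 h (7.27), although 1 OVA library at 24 h was at 7.36, and the 2 lowest G2/M values, 3.62 and 3.76, were TLR7 libraries at 24 h.

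At 24 h the replication and G1/S genes were lower with the TLR7 agonist than with the TLR2 agonist. Of the 37 genes, 36 had a lower mean fit in TLR7, the median difference on the log2 scale was -0.96 against 0.02 over all genes tested, and 8 fell past the threshold (edgeR quasi-likelihood test, adjusted p under 0.05), where 0.604% of all tested genes fell. The 8 were Rrm2, Tyms, Mybl2, Ccne1, Cdc45, Gins3, Prim2 and Lig1, that is, 2 genes each of nucleotide supply, G1/S control, helicase activation and DNA synthesis. None of the helicase ring or histone supply genes passed. In 29 of the 37 genes every TLR7 library lay below every TLR2 library, against 8.51% of all tested genes.

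Among the genes of nucleotide supply, Rrm2 encodes the S-phase subunit of ribonucleotide reductase, which makes deoxynucleotides. Its CPM was 302, 376, 280 and 240 in the TLR2 libraries at 24 h and 59.7, 82.6, 102 and 46 in those of TLR7. The groups did not overlap; the difference on the log2 scale was -2.04 (SE 0.39, edgeR adjusted p = 0.0171), or -2.01 without the middle libraries (adjusted p = 0.0202). Tyms, thymidylate synthase, was at 92.9, 107, 103 and 83.3 CPM in TLR2 and at 32.9, 37.6, 30.9 and 21 in TLR7, again without overlap. Its log2 fold change was -1.66 (SE 0.4, edgeR adjusted p = 0.0434), and -1.39 (adjusted p = 0.029) without the middle libraries. Tk1, the thymidine salvage kinase, depended on the middle libraries: the TLR7 libraries read 9.45, 8.11, 35 and 19.1 CPM, the last pair being the middle ones, against 31.1, 15.7, 32.7 and 23.1 in TLR2. Its fold change of -0.51 (SE 0.33, edgeR adjusted p = 0.363) became -1.48 (SE 0.3, adjusted p = 0.0236) without them.

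Of the G1/S regulators, Mybl2 (B-Myb, an E2F target that acts with the MuvB complex) was at 86.6, 68.1, 92.6 and 71.9 CPM in TLR2 and 29.5, 21.6, 34.3 and 17.6 in TLR7. Every TLR7 library was below every TLR2 library (log2 fold change -1.63, SE 0.28, edgeR adjusted p = 0.0171), and the difference was -1.57 (adjusted p = 0.0082) without the middle libraries. Ccne1, cyclin E1, was at 88.8, 96.1, 91.6 and 77 CPM in TLR2 and 37.5, 40.1, 41.7 and 29.3 in TLR7, which also did not overlap. Its log2 fold change was -1.25 (SE 0.3, edgeR adjusted p = 0.0409), but the adjusted p was 0.0551 without the middle libraries. Ccne2, cyclin E2, had a fold change of -1.74 that missed the threshold (SE 0.51, edgeR adjusted p = 0.0779), as did E2f1, an activating E2F, at -1.24 (SE 0.32, adjusted p = 0.057). E2f2, another activating E2F, split within the TLR7 group: 8.35 and 8.77 CPM in replicates 1 and 2 and 62.9 and 40.5 in the middle replicates 3 and 4, against 23.3 to 29.4 in TLR2. The fitted difference was therefore 0.18 (SE 0.45, edgeR adjusted p = 0.837) with all libraries and -1.59 (SE 0.23, adjusted p = 0.00672) without the middle ones, which is a turn in direction.

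Among the factors that activate the helicase, Cdc45 read 157, 141, 159 and 135 CPM in TLR2 and 59.1, 57.3, 72.5 and 39.6 in TLR7 (log2 fold change -1.37, SE 0.29, edgeR adjusted p = 0.0227). Gins3, a GINS subunit, was near 27 to 32 CPM in TLR2 and 10.7 to 13.6 in TLR7 (-1.18, SE 0.26, edgeR adjusted p = 0.0296; 0.0634 without the middle libraries). Both groups of libraries were separate for each gene. Mcm10, which joins the helicase to polymerase alpha, missed the threshold with all libraries (-1.31, edgeR adjusted p = 0.052) and passed without the middle ones (-1.06, adjusted p = 0.048). Cdc6, the loading ATPase, differed by -1.4 with a large error (SE 0.51, edgeR adjusted p = 0.132). In DNA synthesis, Prim2, the large primase subunit, fell by 1.08 (SE 0.23, edgeR adjusted p = 0.0227) and Lig1, the ligase that joins Okazaki fragments, by 1.05 (SE 0.22, adjusted p = 0.0227), and both passed without the middle libraries. Pcna, the sliding clamp, was at 934, 1080, 1000 and 929 CPM in TLR2 and 571, 633, 423 and 372 in TLR7, separate but not past the threshold (-0.98, SE 0.33, edgeR adjusted p = 0.106).

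The helicase ring had the smallest median difference of the 6 roles, at -0.72. Its 6 genes had log2 fold changes from -0.91 (Mcm7) to -0.53 (Mcm2) between TLR7 and TLR2 at 24 h, and 0 passed. In edgeR 3 had an unadjusted p under 0.05, as did 3095 of all 14560 tested genes. Mcm5 read 707, 507, 722 and 632 CPM in TLR2 and 519, 392, 343 and 262 in TLR7, which overlap, with a fold change of -0.76 (SE 0.35, edgeR adjusted p = 0.221). Without the middle libraries the ring genes lay between -0.56 and -0.15, while the genes of nucleotide supply had a median of -1.39. Whether the roles differ from each other was not tested. The histone chaperone subunit gene Chaf1b had a fold change of -1.17 (SE 0.31, edgeR adjusted p = 0.0594).

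**Figure D2:**
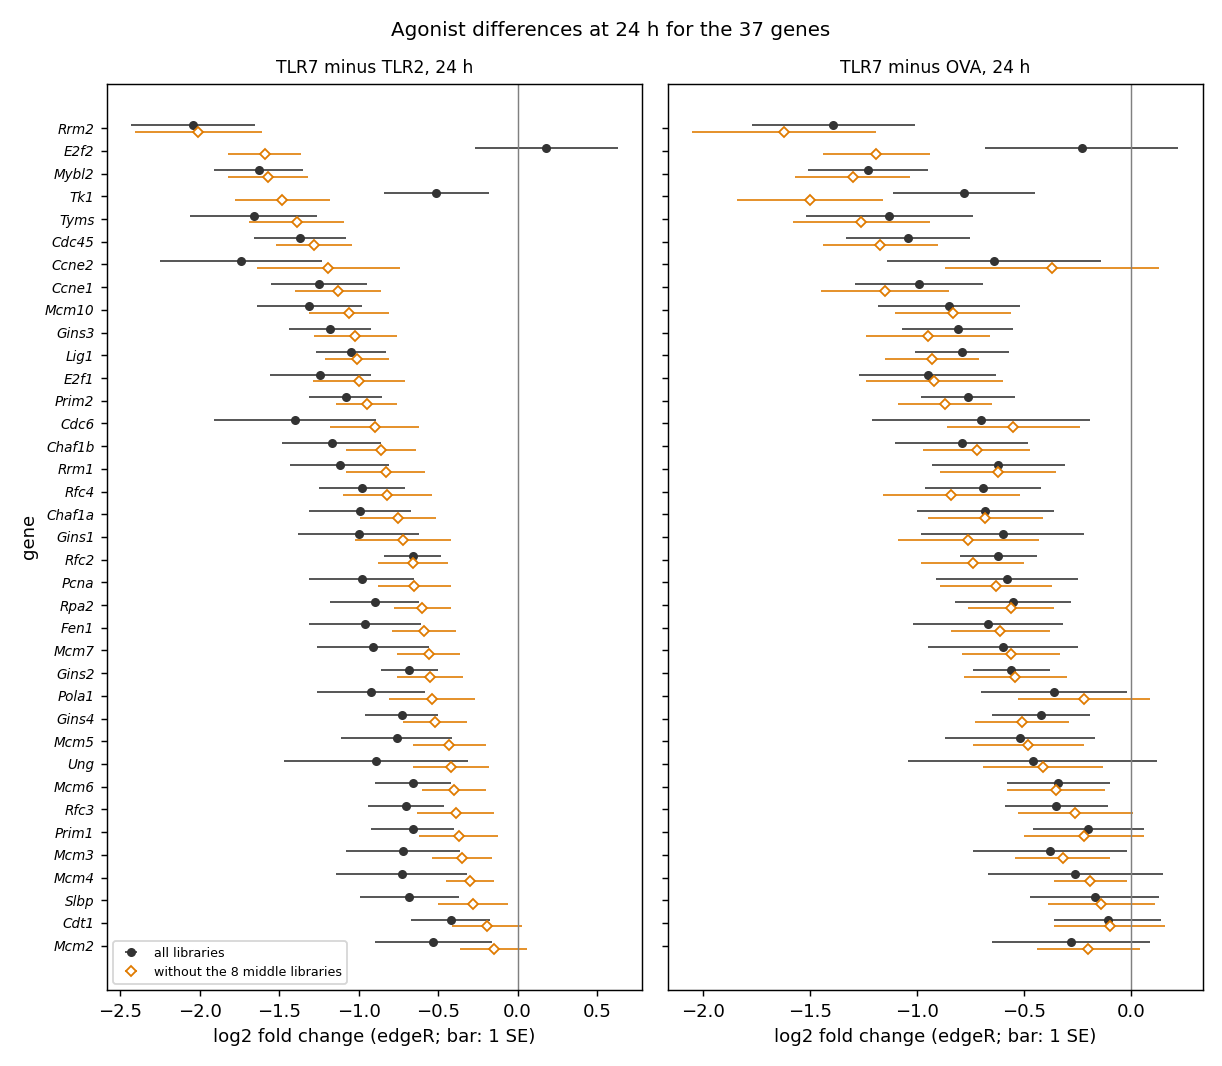
Log2 fold changes (horizontal axis; bars are 1 SE) of the 37 genes at 24 h for TLR7 minus TLR2 (left) and TLR7 minus OVA (right), with all libraries (filled) and without the middle libraries (open). Rrm2 is lowest on both sides without the middle libraries (-2.01 and -1.62), and E2f2 and Tk1 move far to the left in TLR7 minus TLR2 when the middle libraries are left out.

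When the middle libraries were left out, 9 of the 37 genes were past the threshold and lower in TLR7 than in TLR2 at 24 h (0.913% of all tested genes were), with Tk1, E2f2 and Mcm10 in and Ccne1 and Gins3 out. The count of 8 (180 of all genes called) was 2, 0, 2 and 2 without TLR2 24 h replicates 1, 2, 3 and 4. Of all genes 40, 0, 43 and 33 were then called. The count was 13, 13, 5 and 1 without TLR7 24 h replicates 1, 2, 3 and 4. Of all genes 535, 659, 130 and 33 were called in those fits. The count was 0 without the 5 shallow libraries (0 of all genes), and 19 by DESeq2 (1026 of all genes). B cell markers were lower too: the summed level of 9 genes, Cd79a and Ms4a1 among them, was 98.9 to 133 CPM in TLR2 and 21.2 to 37.8 in TLR7, with all 9 lower on average in TLR7. The 2-sided exact permutation p was 0.0286, the smallest that 4 against 4 libraries allow, and 0.099 after adjustment over 90 tests. Dendritic cell markers (group means of 4.29 CPM in TLR7 and 6.31 in TLR2) and erythroid markers (1.06 and 3.63) were lower at the same exact p and adjusted value. The part of these markers in the result was not tested.

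Against peptide alone at 24 h, TLR7 was lower in the fit for all 37 genes, at a median difference of -0.62 on the log2 scale (-0.03 over all genes), yet 0 passed in edgeR with all libraries, where 0.0687% of tested genes fell. In edgeR 16 had an unadjusted p under 0.05, as did 1471 of 14560 tested genes, and DESeq2 called 4, against 241 of all genes. In 12 genes every TLR7 library lay below every OVA library, against 3.03% of tested genes. With the middle libraries left out the median was again -0.62 and 6 fell, where 1.29% of tested genes fell: Tk1 (-1.5), Mybl2 (-1.3), E2f2 (-1.19), Cdc45 (-1.17), Lig1 (-0.93) and Prim2 (-0.87). Mybl2 was at 51, 76.7, 57.5 and 57.1 CPM in OVA, all above the TLR7 range of 17.6 to 34.3, and its fold change with all libraries was -1.23 (SE 0.28, edgeR adjusted p = 0.0624). Rrm2 was at 128, 309, 166 and 157 CPM in OVA against 46 to 102 in TLR7, also separate, with a fold change of -1.39 (SE 0.38, edgeR adjusted p = 0.122; 0.0566 without the middle libraries). The count of 0 became 2 without TLR7 24 h replicate 3, where 152 of all genes were called. B cell markers were again lower in TLR7, with 79.6 to 196 CPM in OVA (2-sided exact permutation p = 0.0286, adjusted 0.099), as was Cd4 at the same exact p (0.525 against 1.55 CPM), and their part was not tested.

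TLR2 against peptide alone at 24 h gave no gene past the threshold. The fit was higher in TLR2 for 35 of the 37 genes, with a median log2 fold change of 0.34. Both edgeR and DESeq2 called 0 of the 37, and of all genes edgeR called 0% and DESeq2 351. In edgeR 1 gene of the 37 had an unadjusted p under 0.05, against 2211 of 14560 tested genes. That gene was Ccne2, at 47.8, 95.7, 43 and 41.1 CPM in TLR2 and 18.1, 41.5, 22.2 and 24.4 in OVA (fold change 1.1, SE 0.5, edgeR adjusted p = 0.301). Cdc6 and Pola1, the catalytic subunit of polymerase alpha, had every TLR2 library above every OVA library, which held for 3.02% of all genes. Cdc6 read 187 to 219 CPM in TLR2 and 77.5 to 177 in OVA. Once the middle libraries were left out the median was 0.08, and 29 of the 37 were higher in TLR2. TLR2 and TLR7 are both compared with the same OVA libraries, so these comparisons are not independent.

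At 72 h no agonist contrast placed any of the 37 genes past the threshold in edgeR: 0 for TLR2 minus OVA, TLR7 minus OVA and TLR7 minus TLR2, where 0%, 3.62% and 4.8% of tested genes were called. Unadjusted p under 0.05 was reached by 2, 1 and 4 of the 37, and by 1693, 2721 and 3852 of all 14560 tested genes. The shares were larger over all genes. DESeq2 called 0, 0 and 1 of the 37, and 86, 941 and 1519 of all genes. The medians were -0.01, -0.16 and -0.17 with all libraries, and -0.63, 0.23 and 0.88 without the middle libraries. TLR7 minus OVA changed sign, from 28 of the 37 fitted lower in TLR7 to 35 fitted higher. TLR7 minus TLR2 changed sign too, with the fit of all 37 genes higher in TLR7 than in the single remaining TLR2 library. In TLR7 minus TLR2, 2 genes had separate libraries with all of them kept, against 12.9% of tested genes. Tk1 was at 48.3, 45, 42.5 and 52.6 CPM in TLR7 and 32.2, 28, 25.2 and 22.1 in TLR2 (fold change 0.81, SE 0.33, edgeR adjusted p = 0.128). E2f2 was at 78, 75.5, 83.8 and 88.4 in TLR7 and 44.6, 68.6, 47.4 and 45 in TLR2 (0.66, SE 0.45, edgeR adjusted p = 0.353). Ung, the glycosylase that removes uracil from DNA, turned from -1.69 (SE 0.6, edgeR adjusted p = 0.0898) to 1.32 (SE 0.35, adjusted p = 0.562) when the middle libraries were left out. The count was 2 without TLR2 72 h replicate 2 in TLR7 minus TLR2 (1589 of all genes). It was 1 without OVA 72 h replicate 4 in TLR2 minus OVA (408). Some summed markers differed at 72 h, at a 2-sided exact permutation p of 0.0286 (adjusted 0.099). T cell markers were higher in TLR7 than TLR2 (3210 against 2240 CPM). CD8 markers were lower in TLR2 and TLR7 than OVA (1040 and 1060 against 1260). Plasma cell markers were lower in TLR7 than OVA and TLR2 (2.09 against 17.4 and 16.2). Dendritic cell markers were lower in TLR7 than TLR2 (2.29 against 5.61). Their part was not tested.

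From 24 h to 72 h the replication and G1/S genes fell in TLR2 almost throughout, in part in OVA, and, with all libraries, in a few cases in TLR7, where others rose. With all libraries 14 genes fell in OVA (10.4% of all tested genes fell), 34 in TLR2 (17.4%), and in TLR7 5 fell (24.2%) and 4 rose (19%). In TLR7 both the falls and the rises were thus smaller shares of the 37 than of all tested genes. The medians were -0.79, -1.16 and -0.32 in OVA, TLR2 and TLR7, where the medians of all tested genes were 0.09, -0.01 and -0.01. Leaving out the middle libraries, 33 fell and 2 rose in OVA, 35 fell and 1 rose in TLR2, and 18 fell and 4 rose in TLR7, with medians of -1.35, -2.11 and -0.48. Of all tested genes 22.7%, 20.5% and 26.6% fell and 29.5%, 25.9% and 29% rose in these fits. B cell markers were lower at 72 h too, from group means of 126, 113 and 29.7 CPM at 24 h to 21.9, 42.3 and 8.14 at 72 h (2-sided exact permutation p = 0.0286 in each culture, adjusted 0.099). T cell markers were higher at 72 h in each culture at the same exact p, from 1790, 1200 and 1500 CPM to 2920, 2240 and 3210. At that p, TLR2 and TLR7 were also lower at 72 h in plasma cell markers (37.3 to 16.2 and 25.8 to 2.09 CPM), macrophage and monocyte markers (11.7 to 4.84 and 6.24 to 1.21) and erythroid markers (3.63 to 0.885 and 1.06 to 0.263). So were neutrophil (2.28 to 0.0983) and NK cell markers (2.54 to 0.492) in TLR7, and Cd4 in OVA (1.55 to 0.31). The part of these markers in the changes over time was not tested.

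**Figure D3:**
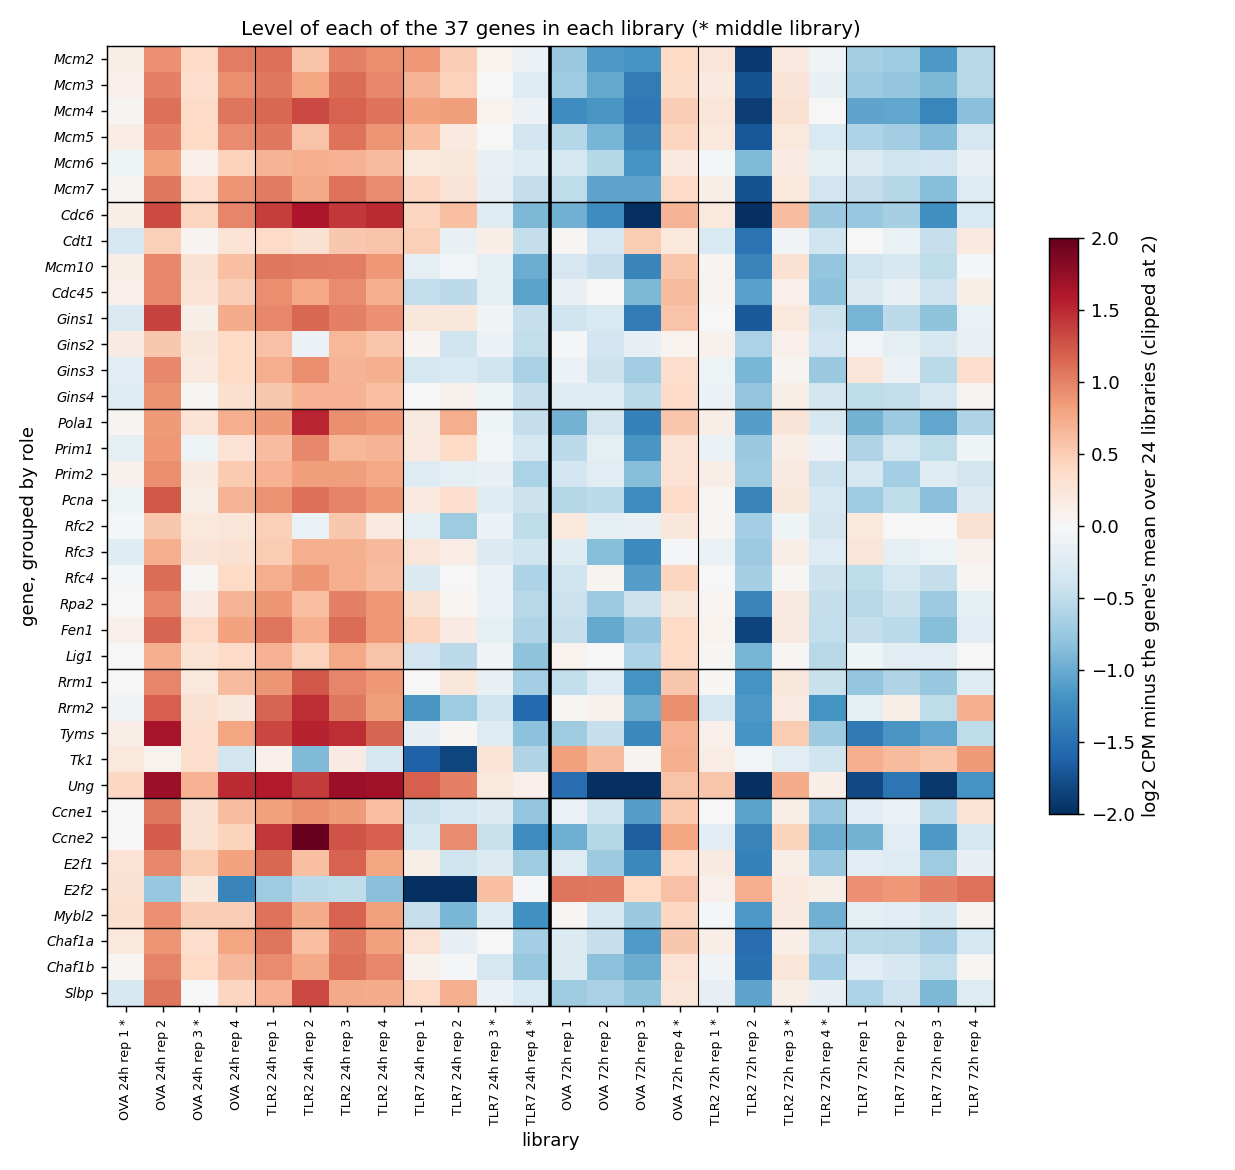
Level of each of the 37 genes (rows, by role) in each of 24 libraries (columns, by group), as log2 CPM minus that gene's mean over the libraries, clipped at 2; an asterisk marks a middle library. The 4 TLR2 libraries at 24 h are high in nearly all rows, TLR2 72 h replicate 2 is low, and the E2f2 row is higher at 72 h than at 24 h on average in each culture.

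The helicase ring fell in OVA and TLR2 in full. All 6 genes passed in both, where 10.4% and 17.4% of all tested genes fell. Fold changes were -1.32 to -0.76 and -1.3 to -0.86 (-2.3 to -1.23 and -3 to -1.5 without the middle libraries). Mcm4 was at 366, 757, 457 and 738 CPM in OVA at 24 h and at 149, 158, 131 and 494 at 72 h. The last value is the middle library, which overlaps the 24 h range; the fold change was -1.32 (SE 0.41, edgeR adjusted p = 0.0387), and -2.3 (SE 0.16, adjusted p = 1.1e-07) without the middle libraries. In TLR7, Mcm4 went from 615, 630, 368 and 324 CPM to 169, 171, 143 and 197, separate at -1.51 (SE 0.42, edgeR adjusted p = 0.00798). Mcm2 (-1.13, adjusted p = 0.0221) and Mcm3 (-1, adjusted p = 0.0317) also fell in TLR7 by edgeR, while Mcm5 at -0.77 did not pass (adjusted p = 0.0826). All 6 ring genes fell in TLR7 too when the middle libraries were left out, from -1.84 (Mcm4) to -0.48 (Mcm6). Of all tested genes 26.6% fell in that fit.

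Of the 8 loading and activation factors 0 fell in OVA in edgeR with all libraries, 8 fell in TLR2 and 0 changed in TLR7. Of all tested genes 10.4%, 17.4% and 24.2% fell. Leaving out the middle libraries, 7 fell in OVA, where 22.7% of all tested genes fell. In TLR7 2 of the 8 then fell (Cdc6 and Gins1), a share near the 26.6% of all tested genes. In TLR2, with 1 library at 72 h, their median log2 fold change was then -1.86. Cdc6 went from 187, 219, 191 and 201 CPM to 83.2, 15.7, 110 and 42.7 in TLR2, a separate pair of groups at -1.66 (SE 0.52, edgeR adjusted p = 0.0205; -3.61 without the middle libraries). In OVA it was at -1.3 (adjusted p = 0.0706; -2.42 and 7.7e-06 without the middle libraries) and in TLR7 at -0.78 (adjusted p = 0.211; -1.19 and 0.00143), all by edgeR. Cdt1, the other loader, differed little in OVA (-0.02, SE 0.25, edgeR adjusted p = 0.968) and was at -0.93 in TLR2 (adjusted p = 0.0123). Gins1, at -1.33 (edgeR adjusted p = 0.0158), and Mcm10, at -1.3 (adjusted p = 0.00961), followed Cdc6 in size in TLR2; the differences were -2.63 and -2.26 without the middle libraries, and -1.87 for Cdt1. In TLR7 Cdc45 was at 0.37 (SE 0.28, edgeR adjusted p = 0.292) and Gins3 at 0.44 (SE 0.26, adjusted p = 0.173).

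Among the DNA synthesis genes Fen1, the flap nuclease of lagging-strand processing, fell in OVA (-1.03, SE 0.35, edgeR adjusted p = 0.0458) and in TLR2 (-1.29, SE 0.35, adjusted p = 0.0124). Pcna fell in OVA by 0.95 (SE 0.33, edgeR adjusted p = 0.048) and in TLR2 by 1.22 (SE 0.33, adjusted p = 0.012); in TLR7 the difference was -0.56 (adjusted p = 0.163). With the middle libraries set aside Fen1 was at -1.67 in OVA and -2.75 in TLR2, and Pcna at -1.65, -2.25 and, in TLR7, -0.8 (edgeR adjusted p = 0.00546). Pola1 fell in TLR2 (-1.25, edgeR adjusted p = 0.0127; -2.11 without the middle libraries) and in TLR7, from 86.6, 126, 72.2 and 54.5 CPM to 39.8, 46, 37.3 and 50.5 (-0.97, SE 0.34, adjusted p = 0.0296). Rfc2, a clamp loader subunit, rose in TLR7, from 80.8, 56.7, 85.1 and 64.8 CPM to 107, 91.8, 92.5 and 114, which are separate (0.49, SE 0.18, edgeR adjusted p = 0.0328). It fell in TLR2 (-0.55, SE 0.18, adjusted p = 0.0252; -0.92 without the middle libraries).

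Ung had the largest fall of the 37 genes in OVA and TLR7. It read 67.5, 165, 81.3 and 142 CPM in OVA at 24 h and 17.5, 11.9, 9.56 and 75.3 at 72 h, and in TLR7 116, 102, 58.7 and 54.1 against 14.4, 18.5, 13.2 and 22.2. The TLR7 times were separate, and in OVA the middle library at 72 h overlapped. The fold changes were -1.99 (SE 0.6, edgeR adjusted p = 0.0352) and -2.27 (SE 0.61, adjusted p = 0.00675), and -3.49 and -2.64 without the middle libraries. In TLR2 Ung missed the threshold (-1.47, SE 0.59, edgeR adjusted p = 0.0516), with 74.2, 84.7 and 55.2 CPM in the middle libraries at 72 h and 7.04 in the other one; without the middle libraries it was at -4.38 (SE 0.43, adjusted p = 1.8e-06).

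**Figure D4:**
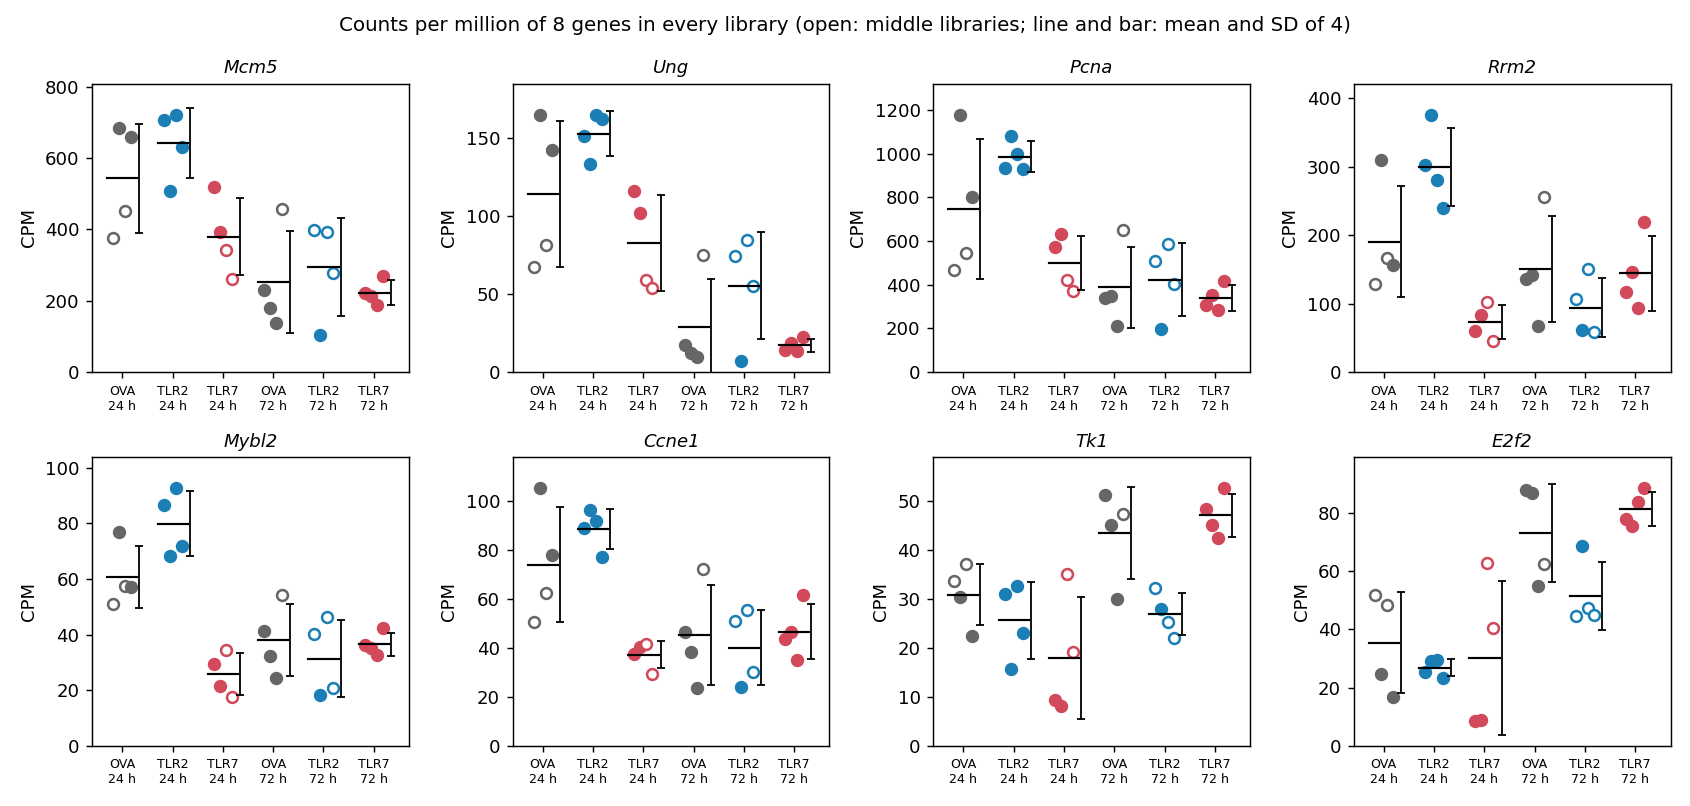
CPM (vertical axes, each from 0) of Mcm5, Ung, Pcna, Rrm2, Mybl2, Ccne1, Tk1 and E2f2 in each library by group; lines and bars are the mean and SD of 4, and open circles are middle libraries. Ung and Mcm5 are low at 72 h outside the middle libraries, the group means of Rrm2 and Mybl2 are lowest in TLR7 at 24 h, and E2f2 is 75.5 to 88.4 CPM in TLR7 at 72 h.

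Rrm2 moved in opposite directions in the agonist cultures. In TLR2 it went from 240 to 376 CPM at 24 h to 106, 60.8, 151 and 58.8 at 72 h (-1.67, SE 0.39, edgeR adjusted p = 0.00798), separate groups. In TLR7 it went from 46 to 102 CPM to 117, 146, 94.1 and 219, which overlap at 1 library (0.99, SE 0.38, edgeR adjusted p = 0.0413). In OVA it did not pass (-0.34, SE 0.38, adjusted p = 0.503), and it was at -0.93 (adjusted p = 0.0492) without the middle libraries. Tyms fell in TLR2 (-1.56, SE 0.4, edgeR adjusted p = 0.00946) and was at -1.1 in OVA (adjusted p = 0.0527) and -0.71 in TLR7 (adjusted p = 0.143). Leaving out the middle libraries, Tyms fell in all 3 cultures, at -1.98 in OVA (edgeR adjusted p = 5.19e-05), -2.51 in TLR2 (adjusted p = 0.000249) and -0.88 in TLR7 (adjusted p = 0.0131).

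Of the G1/S regulators, Ccne2 fell in TLR2 by 2.03 (SE 0.51, edgeR adjusted p = 0.00934), the largest fall there with all libraries, and E2f1 fell in OVA (-1.01, SE 0.32, adjusted p = 0.0393) and TLR2 (-1.26, SE 0.32, adjusted p = 0.0094). Mybl2 fell in TLR2, from 68.1 to 92.6 CPM to 40.1, 18.3, 46.3 and 20.8 (-1.35, SE 0.28, edgeR adjusted p = 0.00778). In TLR7 it read 36.1, 35.1, 32.6 and 42.4 CPM at 72 h against 17.6 to 34.3 at 24 h, with a fold change of 0.5 that did not pass (SE 0.28, adjusted p = 0.14). Chaf1b, of the histone chaperone CAF-1, fell in OVA (-0.92, SE 0.31, edgeR adjusted p = 0.0435) and TLR2 (-1.31, SE 0.31, adjusted p = 0.008), and Slbp, which binds the stem-loop of histone messenger RNA, in TLR2 (-1.15, SE 0.31, adjusted p = 0.0115). With the middle libraries set aside the TLR2 values were -2.25 for E2f1, -2.07 for Mybl2, -2.38 for Chaf1b and -1.89 for Slbp; in OVA E2f1 was at -1.51 and Chaf1b at -1.42.

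E2f2 and Tk1 had positive fitted changes over time in all 3 cultures. E2f2 was at 51.6, 24.7, 48.5 and 16.6 CPM in OVA at 24 h and 87.8, 86.8, 55 and 62.5 at 72 h, separate, at 1.04 (SE 0.45, edgeR adjusted p = 0.0934) with all libraries and 1.96 (SE 0.24, adjusted p = 9.69e-06) without the middle ones. In TLR7 it rose past the threshold in both fits, at 1.43 (SE 0.46, edgeR adjusted p = 0.0176) and 3.28 (SE 0.25, adjusted p = 1.64e-07). In TLR2 it was at 0.94 (SE 0.45, edgeR adjusted p = 0.0994), and 1.41 (SE 0.25, adjusted p = 0.00029) without the middle libraries. Tk1 rose in TLR7, from 9.45, 8.11, 35 and 19.1 CPM to 42.5 to 52.6, separate groups (1.39, SE 0.33, edgeR adjusted p = 0.00359; 2.45 without the middle libraries). In OVA it was at 0.49 (edgeR adjusted p = 0.255; 0.74 and 0.0483 without the middle libraries) and in TLR2 at 0.06 (adjusted p = 0.884; 0.18 and 0.696). Tk1 overlaps Afmid and the predicted gene Gm20708 in the annotation, so its counts are uncertain where reads could be assigned to either.

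**Figure D5:**
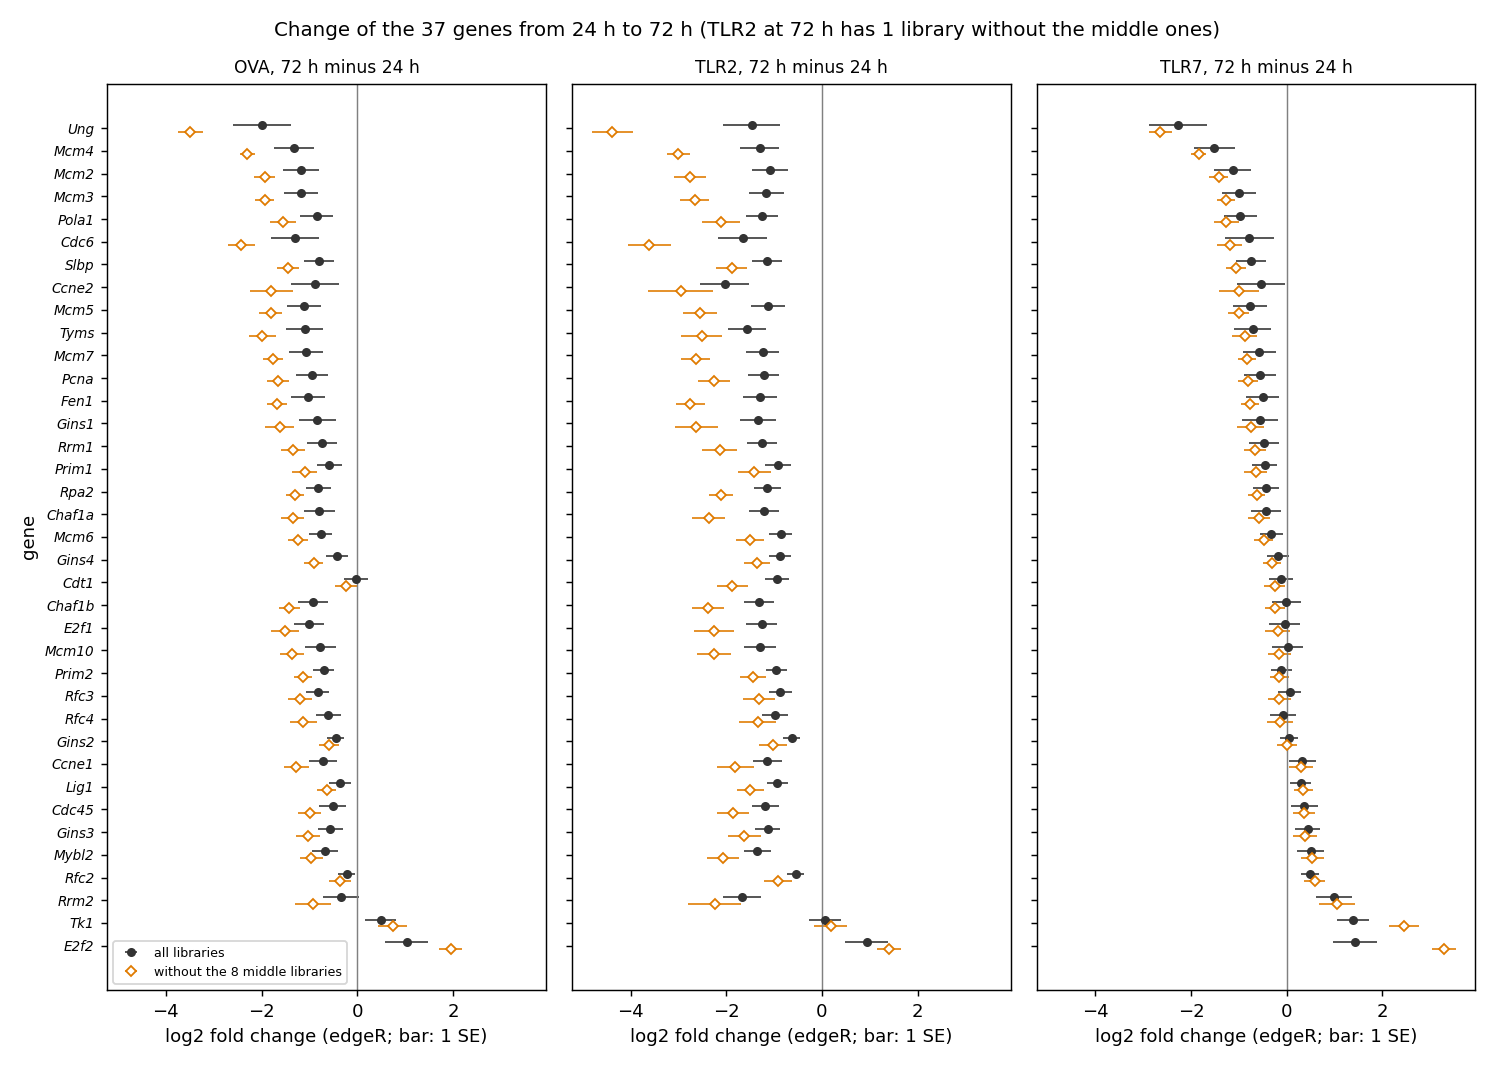
Log2 fold changes from 24 h to 72 h (horizontal axes, the same scale; bars are 1 SE) of the 37 genes in OVA, TLR2 and TLR7 cultures, with all libraries (filled) and without the middle libraries (open). Most points lie left of 0 in OVA and TLR2, the TLR7 points spread from -2.27 (Ung) to 1.43 (E2f2) with all libraries, and Ung is at -4.38 in TLR2 without the middle libraries.

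These counts rested on single libraries in places. In OVA the 14 falls, with 2709 of all genes called, became 22 without OVA 24 h replicate 1 (4528 of all genes). They became 31 without OVA 72 h replicate 4 (4983 of all genes), and both left-out libraries are middle libraries. The falls became 0 without any 1 of OVA 24 h replicates 2 and 4 and OVA 72 h replicates 1, 2 and 3. Of all genes 1, 0, 120, 0 and 3 were then called. In TLR2 the 34 (5681 of all genes called) became 11 (1560) without TLR2 72 h replicate 2, the only library outside the middle. They became 21 (2673) without the 5 shallow libraries. In TLR7 the 9 calls (6288 of all genes) became 4 (4111) and 3 (3945) without TLR7 24 h replicates 1 and 2. Without the shallow libraries the TLR7 calls became 0 (4 of all genes).

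Whether the agonists altered the change over time was tested as a difference of differences. The first contrast was the effect of an agonist against OVA at 72 h minus that at 24 h. Both edgeR and DESeq2 placed 0 of the 37 genes past the threshold for TLR2 and for TLR7. Of all genes edgeR called 0% and 0.81%, and DESeq2 called 2 and 450. In edgeR 2 and 10 of the 37 had an unadjusted p under 0.05, against 919 and 2323 of 14560 tested genes. The change over time in TLR7 minus that in TLR2, a comparison chosen after values were seen, was positive for 34 of the 37, with a median of 0.79 (-0.14 over all genes), and 3 passed (0.44% of tested genes were higher). They were Rrm2 (2.66, SE 0.54, edgeR adjusted p = 0.035), Mybl2 (1.85, SE 0.39, adjusted p = 0.0358) and Gins3 (1.57, SE 0.37, adjusted p = 0.0468). With the middle libraries left out it was positive for all 37 (median 1.63) and 11 passed (0.309% of tested genes), with Cdc45 at 2.23 and Lig1 at 1.85 (adjusted p = 0.0343 for both) among them and Gins3 at 2 not past it (0.0643). That fit sets 4 TLR7 libraries at 72 h against 1 of TLR2. The count of 3 (120 of all genes) was 0 without any 1 of TLR2 24 h replicates 1, 3 and 4. It was 0 too without any 1 of TLR7 24 h replicates 1, 2 and 4. The same held without TLR2 72 h replicate 4 or any 1 of TLR7 72 h replicates 1, 2 and 4. The count was 7 without TLR7 24 h replicate 3 (224 of all genes), and 0 without the shallow libraries (0 of all genes).

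Of 55 further replication genes (origin recognition, polymerases delta and epsilon, checkpoint and nucleotide genes), 9 were past the threshold and lower in TLR7 than in TLR2 at 24 h, against 0.604% of tested genes, with a median of -0.67. Leaving out the middle libraries, 5 were, against 0.913%. The largest were E2f8, an E2F that represses, at -1.75 (SE 0.33, edgeR adjusted p = 0.0171), Clspn, a fork checkpoint mediator, at -1.61 (SE 0.33, adjusted p = 0.0227), and Asf1b, a histone chaperone, at -1.46 (SE 0.29, adjusted p = 0.02). From 24 h to 72 h 16 of the 55 fell in OVA, 51 in TLR2, and 16 fell and 3 rose in TLR7, with medians of -0.58, -0.94 and -0.31. Of all tested genes 10.4%, 17.4% and 24.2% fell, and 19% rose in TLR7. When the middle libraries were left out, 41 of the 55 fell in OVA, 48 in TLR2, and 27 fell and 3 rose in TLR7, against 22.7%, 20.5% and 26.6% of tested genes that fell. Orc1, a subunit of the origin recognition complex, was lowest in OVA (-1.6, SE 0.5, edgeR adjusted p = 0.0385; -2.79 without the middle libraries), and Dna2, a nuclease and helicase, in TLR2 (-1.65, SE 0.49, adjusted p = 0.0176; -3.27 without them). In TLR7 Hells, a chromatin remodeller, fell most (-1.86, SE 0.48, edgeR adjusted p = 0.00539), while E2f8 rose (1.19, SE 0.32, adjusted p = 0.00742).

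Of the 30 G2/M genes 9 rose over time in OVA and 0 fell by edgeR, in TLR2 6 rose and 2 fell, and in TLR7 23 rose and 0 fell, with medians of 0.95, 0.27 and 1.18. Of all tested genes 8.17%, 21.7% and 19% rose, so that in TLR2 the share was near that of all genes, and 12 of the 30 fitted changes there were negative. Leaving out the middle libraries, 22 rose in OVA, 13 rose and 2 fell in TLR2, and all 30 rose in TLR7, against 29.5%, 25.9% and 29% of tested genes that rose. Mki67, the proliferation marker Ki-67, rose in OVA (1.43, SE 0.49, edgeR adjusted p = 0.0485) and TLR7 (1.22, SE 0.49, adjusted p = 0.0495) and did not pass in TLR2 (0.59, adjusted p = 0.332); without the middle libraries it was at 2.14, 3.14 and, in TLR2, 1.03 (edgeR adjusted p = 0.0288). Cdk1, the mitotic kinase, rose in TLR7 (0.94, SE 0.27, edgeR adjusted p = 0.00929) and fell in TLR2 (-0.93, SE 0.26, adjusted p = 0.0147). At 24 h 5 of the 30 were past the threshold and lower in TLR7 than in TLR2 (0.604% of tested genes were), and 20 without the middle libraries (0.913%), when the median was -1.45 against -0.72 for the 37 replication and G1/S genes. The fitted difference was negative in 19 of the 30, and in all 30 without the middle libraries. The G2/M level in TLR7 at 24 h was 3.62 and 3.76 in replicates 1 and 2 and 6.11 and 5.1 in the middle replicates 3 and 4, so the group mean describes neither pair. The G2/M genes were among those that formed the component by which the middle libraries were picked. Counts of G2/M genes without those libraries, at 24 h and over time, are therefore no added support.

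Levels between genes were compared per kilobase of exon, as CPM per kilobase of the union of exons. Over all libraries Pcna stood highest, at 235, followed by Mcm6 at 146, Mcm3 at 142 and Mcm4 at 120, and Tk1 lowest, at 6.15. The ranking was not constant: in TLR7 at 72 h Mcm6 stood at 112 and Mcm4 at 47.4 on this scale, while in TLR2 at 24 h they were at 221 and 223. Tk1 was at 4.93 in TLR2 at 24 h and 9.06 in TLR7 at 72 h. Of the 37 genes, 17 overlap another annotated gene, among them Cdc45, Lig1, Prim2, Mybl2, Ccne2 and Fen1 of those named, and the sources used here do not give the strand setting, so reads of overlapping genes may be shared between them.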

How the data were processed

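The authors deposited expected counts per gene, 1 table per library, not scaled between libraries; 28.7% of the values above 0 are not whole. STAR, RSEM, edgeR and GRCm38 are named in the submitters' processing notes; the sources used here do not give versions, roles or annotation. Counts were rounded and scaled by TMM in edgeR 4.0.16 (R 4.3.3, limma 3.58.1). The filter filterByExpr (minimum count 10, minimum total 15) kept 14560 genes. All 24 libraries entered 1 quasi-likelihood model with a term per group (18 residual degrees of freedom, 10 without the middle libraries, on the same genes), adjusted by Benjamini-Hochberg over all tested genes at 0.05. log2 CPM used a prior count of 2. DESeq2 1.42.0, tried as an alternative, ran on the same counts. There were 9 comparisons of 2 groups, 2 differences between times and 1 added later. Code was tested on simulated data.

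The 37 members and all gene lists were chosen with earlier results of these data known. Names follow a rule: 10 genes (Mcm5, Cdc6, Rrm2, Tyms, Pcna, Ccne1, Ccne2, E2f1, E2f2 and Mybl2), up to 3 members past the threshold per role and comparison, and up to 5 other replication genes per comparison. Other names, among them all G2/M genes and members named with values that did not pass, were chosen after their values were seen. Cell types were read from 10 marker lists: T cell, CD8 T cell, CD4 T cell, B cell, plasma cell, macrophage and monocyte, dendritic cell, neutrophil, erythroid and NK cell; 1 B cell marker is not reported here and was left out of its list. Positions and overlaps come from GENCODE M21 (GRCm38), and promoter windows from RefSeq. Middle libraries were those in the middle of 3 equal parts of the first component's range. Alternatives were RLE scaling, no scaling, no filter and a stricter filter on low counts, a fit on only the groups compared, DESeq2, a block for the replicate number, another prior count, robust empirical Bayes and leaving out each library, the middle libraries or the shallow libraries, the last 2 chosen after seeing the data.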

Additional observations from a re-analysis of the deposited data

Results flagged for a closer look

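Groups of 4 libraries were searched for outliers on the log2 CPM scale. The gap of the highest or lowest library to the nearest other was taken as a share of the group's range. This share exceeded Dixon's critical value in 12 of 228 tests (5.26%), and chance flags about 1 in 20 groups. The flagged values are printed below in CPM, on which the shares differ from those tested. TLR2 24 h replicate 2 stood apart for 5 genes: Gins2 was low at 40.3 CPM (the others at 64 to 69.4), and Gins3 was high at 32 (27 to 27.7), Pola1 at 220 (138 to 146), Prim1 at 244 (193 to 201) and Slbp at 322 (209 to 220). TLR7 24 h replicate 4 was low for Mcm10, at 49.6 CPM against 86.1 to 94.5. OVA 72 h replicate 4, a middle library, was high for Mcm4, at 494 CPM against 131 to 158, and for Slbp, at 154 against 74.2 to 82.8. TLR2 72 h replicate 2, the only library of its group outside the middle, was low for Mcm2, at 48.6 CPM against 174 to 217, and for Mcm4, at 95.7 against 352 to 436, and high for E2f2, at 68.6 against 44.6 to 47.4. TLR7 72 h replicate 3 was low for E2f1, at 19.1 CPM against 26.2 to 27.8.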

How the results depend on the processing

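Of 68 pairs of a gene and a comparison past the threshold, 0 changed direction in any alternative; all 68 kept their call under RLE scaling, a stricter filter, robust empirical Bayes and DESeq2, 65 without the middle libraries and 21 without the 5 shallow libraries. Counts of members called that moved by over 1.5 times were as follows, and the cause was not tested. Calls over all genes moved as well and are given in parentheses. TLR7 minus OVA at 24 h went from 0 (32) to 4 (241) by DESeq2 and 6 (424) without the middle libraries. TLR7 minus TLR2 at 24 h went from 8 (180) to 19 (405) on only the groups compared. It was 19 (1026) by DESeq2 and 0 (0) without the shallow libraries. TLR7 minus TLR2 at 72 h went from 0 (699) to 2 (3302) on only the groups compared and 1 (1519) by DESeq2. The OVA change over time went from 14 (2709) to 2 (1129) with no filter and 0 (0) on only the groups compared. It was 35 (7596) without the middle and 0 (0) without the shallow libraries. The TLR2 change went from 34 (5681) to 21 (2673) without the shallow libraries. The TLR7 change went from 9 (6288) to 22 (8094) without the middle and 0 (4) without the shallow libraries. TLR7 change minus TLR2 change went from 3 (120) to 9 (726) on only the groups compared. It was 7 (493) by DESeq2 and 0 (0) without the shallow libraries. Its count without the middle libraries is left out here, since TLR2 at 72 h then has 1 library.

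Leaving out each library in turn gave 0 to 2 for TLR7 minus OVA and 0 to 13 for TLR7 minus TLR2 at 24 h; 0 to 1 for TLR2 minus OVA and 0 to 2 for TLR7 minus TLR2 at 72 h; and 0 to 31, 11 to 35 and 3 to 10 for the changes over time in OVA, TLR2 and TLR7, and 0 to 7 for TLR7 change minus TLR2 change. Directions were followed for the 68 pairs past the threshold and 52 others named here, and turned only among the latter. Pairs not followed turned too. In TLR7 minus OVA at 72 h, 28 of the 37 were fitted lower with all libraries. Without the middle libraries 35 of the 37 were fitted higher. E2f2 in TLR7 minus TLR2 at 24 h (0.18) was -1.59 without the middle libraries and -0.47 to 0.49 with 1 library left out; E2f2 in TLR7 minus OVA at 24 h ranged from -0.87 to 0.09. Ung in TLR7 minus TLR2 at 72 h (-1.69) was 1.32 without the middle libraries. Cdt1 over time in OVA (-0.02) was 0.03 with no scaling and -0.16 to 0.05 with 1 library left out, and Tk1 over time in TLR2 was -0.1 to 0.21.

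The replicate numbers were not used as pairs in the main fit. Over 60 pairs of libraries with the same number, the correlation of deviations from the group means ran from -0.62 to 0.52 (median 0.04). It exceeded 0.1 in 21 pairs, and the median was -0.03 for pairs with different numbers. Deviations also hold the contrast of middle and other libraries, so these values cannot exclude a shared origin. With the replicate block, TLR7 minus TLR2 at 24 h gave 5 members (125 of all genes). TLR7 change minus TLR2 change gave 1 with the block (56 of all genes). The lowest count of a member in any library was 85 (Tk1); precision rests on 4 libraries a group, and on 1 to 4 without the middle libraries.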
